A study of Mus musculus with 4 samples.

Results

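The genes described here are tumour necrosis factor (TNF) superfamily ligands, their receptors, adaptors and inhibitors of apoptosis, NF-kappaB proteins, and genes with Tnfaip symbols. They were chosen by symbol: Tnf, Ltb, Lta, Fas, Fasl, Nfkbia, Nfkb1, Nfkb2, Rela, Relb, Birc2, Birc3 and every symbol that starts with Tnfsf, Tnfrsf, Tnfaip or Traf and a digit. Of 21878 rows in the count tables, 62 had such a symbol, and 48 of these had at least 10 raw counts in at least 2 libraries. The 48 kept genes are 7 ligands, 17 receptors, 12 adaptors, 5 NF-kappaB proteins and 7 TNF-induced proteins. The adaptors take in TRAF adaptors, genes named for interacting with TRAFs and inhibitors of apoptosis, and not all of them bind the receptors. The TNF-induced proteins are the genes with Tnfaip symbols, of which Tnfaip8l1 and Tnfaip8l2 are named for likeness to Tnfaip8. The 14 genes not kept were 9 ligands, 4 receptors and Tnfaip8l3.

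The material was RNA of CD24+ cells taken from mouse liver by magnetic sorting (MACS). The labels call these cells hepatocytes. All mice were C57BL/6 and were injected from 8 weeks of age, while the age label reads 6 to 8 weeks. CCL4 mice received carbon tetrachloride, a hepatotoxin that injures the centre of the liver lobule, diluted in olive oil (2 ml/kg, 2 injections per week over 6 weeks). The HACY group was given 3 compounds together, namely the ROCK inhibitor Y-27632, the GSK3 inhibitor CHIR99021 and A-83-01, which blocks the TGF-beta type I receptor kinase, with 3 injections per week over the same 6 weeks. The labels leave unclear whether the HACY group was exposed to carbon tetrachloride as well, and the series has no untreated group. Each group has 2 libraries. The labels do not say that these came from separate animals, so every p-value here reflects only how far the libraries of a group lie apart, which may be technical.

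TNF superfamily ligands are mostly membrane-bound trimers that can be shed, and each binds one or a few receptors. Receptors with a death domain, such as TNFR1 and Fas, can assemble complexes that lead to NF-kappaB activation or to apoptosis or necroptosis, while the other signalling receptors recruit TRAF adaptors directly. In liver, TNF comes largely from macrophages, and its action on hepatocytes ranges from priming for regeneration to cell death.

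The 4 libraries held 18467299 to 19314219 counts. Levels are given as counts per 1000000 (CPM), scaled to library size by edgeR's TMM method, and a library with a count of 0 allows up to 0.148 to 0.170 CPM, the level of 3 counts. Differences were tested with edgeR's quasi-likelihood test over all 13428 genes that passed its filter on low counts, with Benjamini-Hochberg adjustment and a threshold of 0.05, and log2 fold changes are HACY over CCL4. Leaving out each library in turn gave very different numbers of calls, so the libraries on which a call rests are named beside it. Fewer cells of one type and less RNA per cell cannot be told apart in such bulk samples.

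Upstream sequences are shown first, because NF-kappaB and interferon are known regulators of genes in this family and the sites can be set beside the values that follow. The 250 bases before each RefSeq start (GRCm38.p6) were searched on both strands for a kappaB motif, GGGA and TTCC with any 2 bases between them (GGAA and TCCC on the other strand), and for an interferon-response core, TTTC and TTTC with any 2 bases between them (GAAA and GAAA on the other strand). The letters of the 2 motifs do not overlap in any printed site. Of the 48 kept genes, 38 matched the promoter table by symbol. The kappaB motif was present in 4 of these 38 (10.5%), against 1.36% of all 27025 genes in the table. A RefSeq start can lie inside a gene: the printed sites of Nfkb2, Tnfrsf14 and Tnfsf13b lie within the annotated span of the gene. In the windows of Nfkb2 and Tnfrsf14 the longest stretch free of annotated exons held no match. The sites are printed 5′ to 3′ with 10 bases on each side, and the capitals mark the motif.
Ltb, chr17:35194410-35194439, plus strand: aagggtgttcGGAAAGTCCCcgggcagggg
Nfkb2, chr19:46305449-46305478, plus strand: tccgacggcaGGAATGTCCCcacaaaagcc
Nfkb2, chr19:46305695-46305724, plus strand: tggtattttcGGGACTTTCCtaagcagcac
Nfkbia, chr12:55492657-55492686, minus strand: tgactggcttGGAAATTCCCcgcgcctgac
Tnfaip8l1, chr17:56162333-56162362, plus strand: ctattccggaGGAATCTCCCggccgcagac
None of these 4 genes was called: their log2 fold changes were -1.05 for Ltb, -0.41 for Nfkb2, -0.26 for Nfkbia and 0.51 for Tnfaip8l1. The interferon-response core was present in 3 of the 38 (7.89%), against 3.46% of all genes. Of these 3, Tnfrsf14 was called higher (1.04), and Tnfrsf1b (0.43) and Tnfsf13b (0.03) were not called.
Tnfrsf14, chr4:154928122-154928151, minus strand: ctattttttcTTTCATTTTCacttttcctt
Tnfrsf1b, chr4:145246861-145246890, minus strand: ggcctgagggTTTCGCTTTCagtcaccagc
Tnfsf13b, chr8:10006607-10006636, plus strand: tacaaaaactGAAAGTGAAAtgcggaaggc
The 2 called ligands, Tnf and Tnfsf10, held neither motif in this window, which says only that these letters are absent there. The exon-free bases upstream of each are printed because they are the ligands whose RNA differed.
Tnf, chr17:35202008-35202257, minus strand: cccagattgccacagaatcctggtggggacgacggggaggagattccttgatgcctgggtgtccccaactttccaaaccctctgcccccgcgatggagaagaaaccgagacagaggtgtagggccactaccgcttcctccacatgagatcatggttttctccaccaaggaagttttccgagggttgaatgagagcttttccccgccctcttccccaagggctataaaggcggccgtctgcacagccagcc
Tnfsf10, chr3:27316827-27317027, plus strand: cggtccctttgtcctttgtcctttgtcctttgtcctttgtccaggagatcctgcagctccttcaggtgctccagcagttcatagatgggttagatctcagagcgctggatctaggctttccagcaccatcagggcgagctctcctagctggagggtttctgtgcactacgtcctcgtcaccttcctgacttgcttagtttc

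Of the 48 kept genes, 6 passed the test (12.5%), close to the 11.7% of all tested genes that did. The higher calls were Tnf, Tnfsf10, Tnfrsf11a, Tnfrsf14 and Tnfrsf1a, which is 5 of 48 (10.4%) against 8.19% of all tested genes. The only lower call was Traf4, 1 of 48 (2.08%) against 3.54% of all tested genes. The CPM of the groups did not overlap for 30 of 48 genes (62.5%), against 60.8% of all tested genes, with HACY above in 18 and below in 12. The median log2 fold change was 0.04 over the 48 genes and -0.01 over all tested genes. Scaling by library size alone moved these medians to -0.13 and -0.18, and under it 6 members near 0 (Nfkb1, Tnfaip1, Tnfrsf26, Tnfsf13b, Traf5 and Traf6) changed sign. By these counts the family as a whole stood near the background. The medians by role were 0.51 for TNF-induced proteins, 0.39 for receptors and 0.03 for ligands. They were -0.26 for NF-kappaB proteins and -0.27 for adaptors. With 1 library left out they ran from 0.22 to 1.09 for TNF-induced proteins and 0.32 to 0.42 for receptors. The ranges were -0.50 to -0.09 for NF-kappaB proteins and -0.45 to -0.02 for adaptors. For ligands the range was -0.39 to 0.77, so the sign of their median changed with the library left out.

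**Figure D1:**
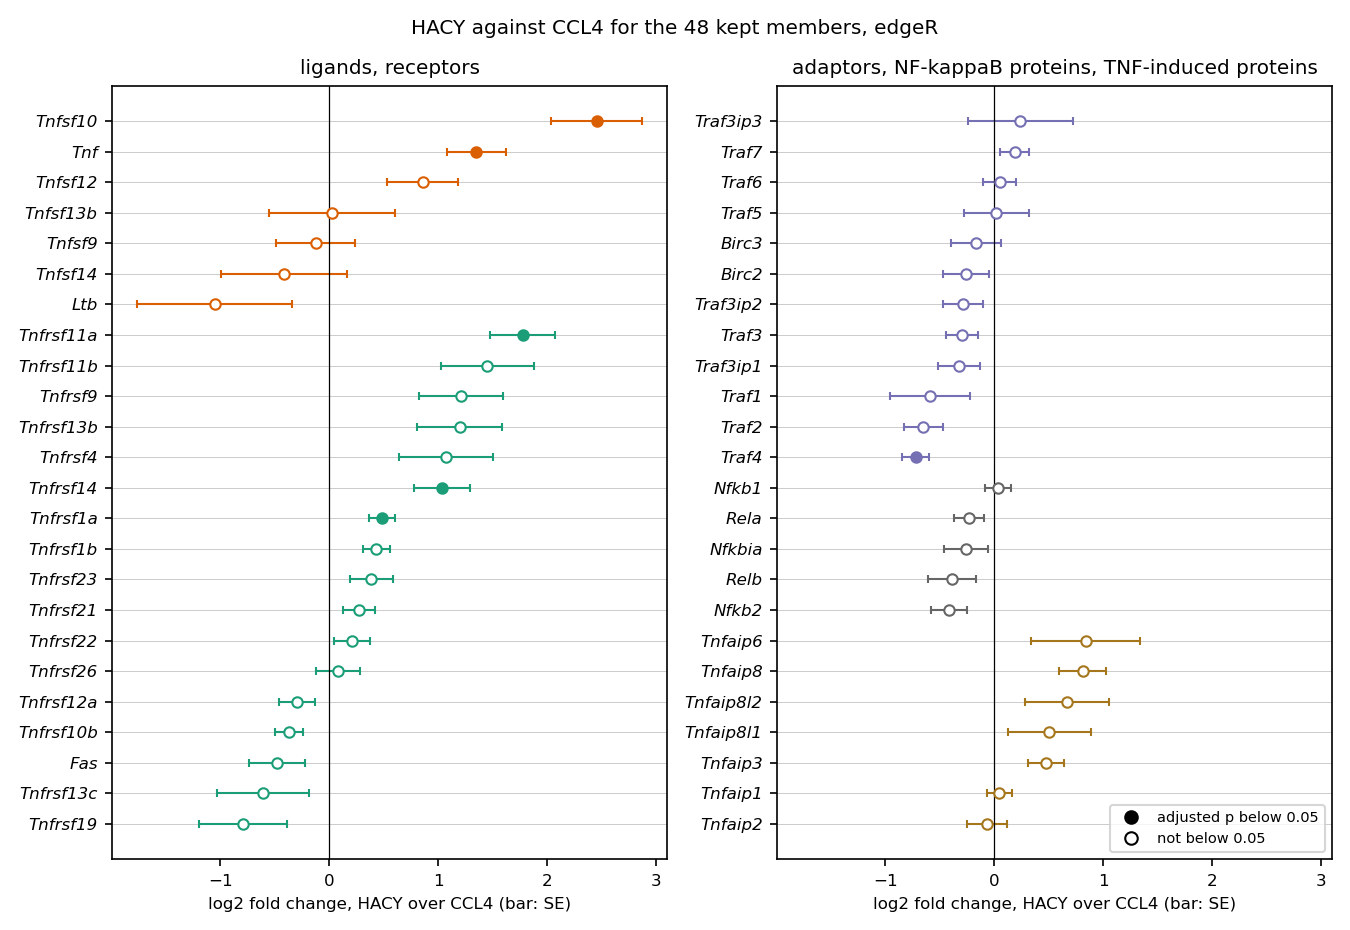
Log2 fold change, HACY over CCL4, of each of the 48 kept genes with its standard error (bar), grouped by role. Filled points passed edgeR's test at an adjusted p of 0.05: Tnf, Tnfsf10, Tnfrsf11a, Tnfrsf14 and Tnfrsf1a lie to the right of 0 and Traf4 to the left.

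Of the 7 ligands, 2 rose in HACY (28.6%, against 8.19% of all tested genes) and 5 did not pass the test. Tnfsf10 encodes TRAIL, a ligand that triggers apoptosis through death receptors, and lies on the plus strand at chr3:27317028-27342427 (GRCm38, as for the positions below). It had 73 and 66 raw counts in the HACY libraries and 16 and 12 in the CCL4 libraries, or 3.99 and 3.75 CPM against 0.809 and 0.591 CPM. Both HACY libraries stood well above both CCL4 libraries. The means were 3.87 ± 0.171 CPM (SD, n = 2) in HACY and 0.700 ± 0.154 CPM (SD, n = 2) in CCL4. This is a log2 fold change of 2.46 (SE 0.41, edgeR adjusted p = 0.0130), a 5.48-fold difference that was the largest among the kept genes. Without HACY replicate 1 it was 2.40 with an adjusted p of 0.0620, the only one of the 12 alternatives run for it in which it was not called. Its level was low in every library, at 0.125 to 0.777 FPKM.

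Tnf encodes the founding ligand of the family, a product of activated macrophages and other leukocytes, and lies on the minus strand at chr17:35199381-35202007. Its CPM was 15.7 and 11.3 in HACY and 5.01 and 5.57 in CCL4. The groups did not overlap, and the HACY libraries differed from each other more than the CCL4 libraries did. The means were 13.5 ± 3.14 CPM (SD, n = 2) and 5.29 ± 0.399 CPM (SD, n = 2), with a log2 fold change of 1.35 (SE 0.27, edgeR adjusted p = 0.0226), or 2.55-fold. Leaving out HACY replicate 1 (log2 fold change 1.09, adjusted p = 0.191) or CCL4 replicate 1 (1.28, adjusted p = 0.0504) ended the call and kept the direction.

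Among the ligands not called, Tnfsf12 encodes TWEAK, a ligand linked to liver progenitor expansion. Its CPM was 7.48 and 5.11 in HACY and 3.69 and 3.25 in CCL4 (log2 fold change 0.86, SE 0.33, edgeR adjusted p = 0.131). Its exons overlap those of the read-through gene Tnfsfm13 on the same strand, so its count is uncertain. Tnfsf13b, which encodes the B cell survival factor BAFF, was at 0.437 and 0.738 CPM in HACY and 0.657 and 0.493 CPM in CCL4. With 8, 13, 13 and 10 raw counts it was the gene just inside the count rule, and Tnfsf13, with 12, 8, 5 and 6, was just outside it. Tnfsf9, the ligand of 4-1BB, had a log2 fold change of -0.12 (SE 0.36).

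Ltb and Tnfsf14 were set by 1 CCL4 library. Ltb encodes lymphotoxin beta, which forms a membrane complex with lymphotoxin alpha, and was at 1.09 and 0.624 CPM in HACY and 0.708 and 2.86 CPM in CCL4. Tnfsf14 encodes LIGHT, a ligand of HVEM, and was at 2.62 and 2.55 CPM in HACY and 1.52 and 5.37 CPM in CCL4. In both, CCL4 replicate 2 was the highest library and the groups overlapped. Their log2 fold changes were -1.05 (SE 0.71) and -0.41 (SE 0.57), and 0.28 and 0.77 without that library. The CPM summed over 10 neutrophil markers was 22.8 and 27.5 in HACY, 21.4 in CCL4 replicate 1 and 205.2 in CCL4 replicate 2. The largest parts of that last sum were S100a9 (112.0 CPM) and S100a8 (51.8 CPM). Not every marker was highest there: Ltf (1.97 CPM) was below both HACY libraries, Ngp (6.65 CPM) lay between them, and Camp had 0 counts. The part of neutrophil RNA in the values of Ltb and Tnfsf14 was not tested.

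The 9 ligands under the count rule had at most 12 counts in any library. Tnfsf13, which encodes APRIL, had 1.54 to 3.07 FPKM in spite of its 5 to 12 counts, and it shares exons with its neighbours. Fasl, the Fas ligand, had 3 and 6 counts in HACY and 0 in each CCL4 library. Lta had 4 and 4 counts in HACY and 1 and 0 in CCL4. Tnfsf11, the ligand of RANK, had 6 and 0 counts in HACY and 1 and 4 in CCL4, so the ligand of the called receptor Tnfrsf11a was barely detected in any library. Tnfsf4, Tnfsf8, Tnfsf15 and Tnfsf18 had at most 10 counts in any library. Tnfsfm13 had 0 counts in all 4 libraries although its FPKM was 0.737 to 1.96, and it shares exons with Tnfsf12 and Tnfsf13.

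**Figure D2:**
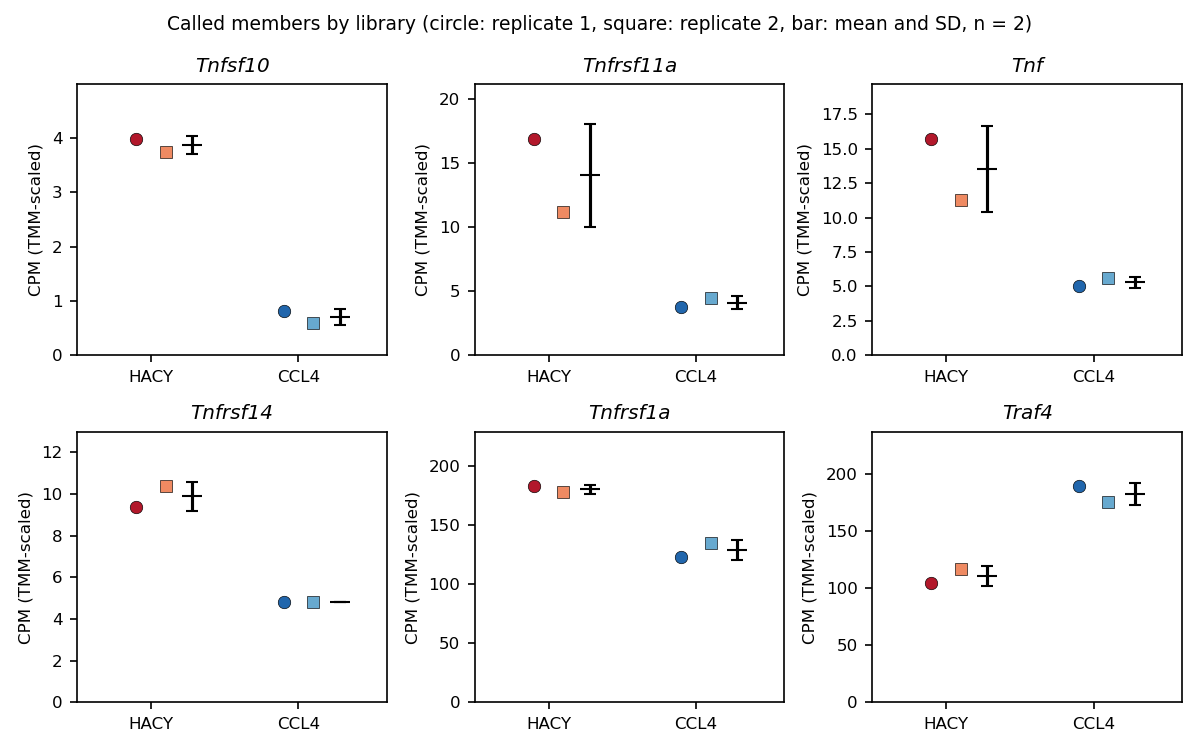
CPM of the 6 called genes in each library (circle, replicate 1; square, replicate 2; bar, mean and SD of 2 libraries; each panel has its own axis, starting at 0). The HACY libraries lie above the CCL4 libraries for Tnf, Tnfsf10, Tnfrsf11a, Tnfrsf14 and Tnfrsf1a and below them for Traf4.

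Of the 17 receptors, 3 rose (17.6%, against 8.19% of all tested genes), none fell and 14 did not pass the test. Receptor calls numbered 0 without HACY replicate 1, with 4 at an unadjusted p under 0.05, and 1 without HACY replicate 2 or under upper-quartile scaling. Tnfrsf11a encodes RANK, the receptor that drives osteoclast formation and is also carried by dendritic cells and macrophages, and lies on the plus strand at chr1:105780718-105847981. Its CPM was 16.9 and 11.2 in HACY and 3.74 and 4.44 in CCL4. The lower HACY library was above both CCL4 libraries. The means were 14.0 ± 4.03 CPM (SD, n = 2) and 4.09 ± 0.491 CPM (SD, n = 2), a log2 fold change of 1.78 (SE 0.30, edgeR adjusted p = 0.0125), or 3.43-fold. Without HACY replicate 1 the log2 fold change was 1.44 and the adjusted p 0.0810. It was called in the other 13 of 14 alternatives.

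Tnfrsf14 encodes HVEM, which binds LIGHT and BTLA, and lies on the minus strand at chr4:154921933-154928563. The interferon-response core printed above lies inside this span, 64 to 55 bases before a RefSeq start. The CPM of Tnfrsf14 was 9.39 and 10.4 in HACY and 4.80 and 4.83 in CCL4. The libraries of each group were close to each other. It had a log2 fold change of 1.04 (SE 0.25, edgeR adjusted p = 0.0420), or 2.05-fold, from means of 9.89 ± 0.701 and 4.82 ± 0.0190 CPM (SD, n = 2 each). It was called in 6 of 14 alternatives. Its adjusted p was 0.199 when HACY replicate 1 was left out, 0.268 when HACY replicate 2 was, and 0.0631 when CCL4 replicate 1 was.

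Tnfrsf1a and Tnfrsf1b encode the TNF receptors TNFR1, which has a death domain and is found on most cells, and TNFR2, which binds TRAF2 and is found mainly on leukocytes and endothelium. Tnfrsf1a lies on the plus strand at chr6:125349362-125362484 and was at 182.9 and 177.5 CPM in HACY and 122.9 and 134.8 CPM in CCL4. The shift was small beside that of the ligand but the replicates were tight, with a log2 fold change of 0.48 (SE 0.12, edgeR adjusted p = 0.0431), or 1.40-fold. It was called in 6 of 14 alternatives. Scaled by library size alone it was 0.31 (adjusted p = 0.116), and its adjusted p was 0.304, 0.228 and 0.0673 with HACY replicate 1, HACY replicate 2 and CCL4 replicate 1 left out in turn. Tnfrsf1b was at 135.2 and 123.2 CPM in HACY and 96.4 and 94.8 CPM in CCL4 (log2 fold change 0.43, SE 0.12, edgeR adjusted p = 0.0617).

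The other death receptors had lower CPM in both HACY libraries or a small positive value. Fas was at 6.88 and 5.79 CPM in HACY and 9.20 and 8.48 CPM in CCL4 (log2 fold change -0.48, SE 0.26, edgeR adjusted p = 0.253). Tnfrsf10b, the only mouse TRAIL receptor with a death domain, was at 72.8 and 72.6 CPM in HACY and 100.7 and 86.9 CPM in CCL4 (log2 fold change -0.37, SE 0.13, edgeR adjusted p = 0.115). The TRAIL ligand and its receptor thus had opposite signs, but of the pair only the ligand passed the test. Tnfrsf10b was called lower under scaling by library size alone, in the FPKM fits and without CCL4 replicate 2, and Fas was called lower in the FPKM fits. Tnfrsf21, which encodes DR6, had a log2 fold change of 0.27 (SE 0.15).

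Decoy and soluble receptors bind a ligand without a death signal. Tnfrsf11b encodes osteoprotegerin, a secreted decoy for RANK ligand and TRAIL, and was at 11.3 and 9.31 CPM in HACY and 2.12 and 5.37 CPM in CCL4. The groups did not overlap, but the CCL4 libraries differed 2.53-fold from each other, and the log2 fold change of 1.45 (SE 0.43) had an edgeR adjusted p of 0.0717. Leaving out CCL4 replicate 2 gave 2.27, which was called (adjusted p = 0.00775), and leaving out CCL4 replicate 1 gave 0.94, which was not (0.0839). It was also called by DESeq2 and by edgeR without the filter. Tnfrsf22, Tnfrsf23 and Tnfrsf26 are neighbouring, closely related mouse genes on chromosome 7, so their counts are uncertain. Their log2 fold changes were 0.21, 0.39 and 0.08, none called, and Tnfrsf23 was among the most abundant kept genes at 65.2 FPKM on average.

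Tnfrsf12a encodes Fn14, the TWEAK receptor, which is induced in injured liver and carried by progenitor cells. It had the highest FPKM of the 48 genes in every library, at 203.4 and 185.0 in HACY and 209.7 and 284.7 in CCL4. Its CPM was 203.2 and 188.9 in HACY and 204.2 and 277.1 in CCL4 (log2 fold change -0.30, SE 0.16, edgeR adjusted p = 0.270). CCL4 replicate 2 stood apart from the other libraries, and CCL4 replicate 1 lay near the HACY libraries. Without CCL4 replicate 1 Tnfrsf12a was called lower.

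The remaining receptors that bind TRAFs were lowly expressed and none passed the test. Tnfrsf9, which encodes 4-1BB, a costimulatory receptor, had a log2 fold change of 1.21 (SE 0.38, edgeR adjusted p = 0.0859), Tnfrsf13b, which encodes the BAFF receptor TACI, 1.20 (SE 0.39, 0.0928), and Tnfrsf4, which encodes the costimulatory receptor OX40, 1.07 (SE 0.43, 0.145). The values of Tnfrsf13c, the BAFF receptor of B cells, and Tnfrsf19 were -0.60 (SE 0.42) and -0.79 (SE 0.40). Of the 17 receptors 15 had groups that did not overlap (88.2%, against 60.8% of all tested genes), and 9 had an unadjusted p under 0.05 (52.9%, against 30.1% of all tested genes). Their median log2 fold change was 0.39. Tnfrsf8, Tnfrsf17, Tnfrsf18 and Tnfrsf25 were under the count rule, with at most 11 counts in any library.

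**Figure D3:**
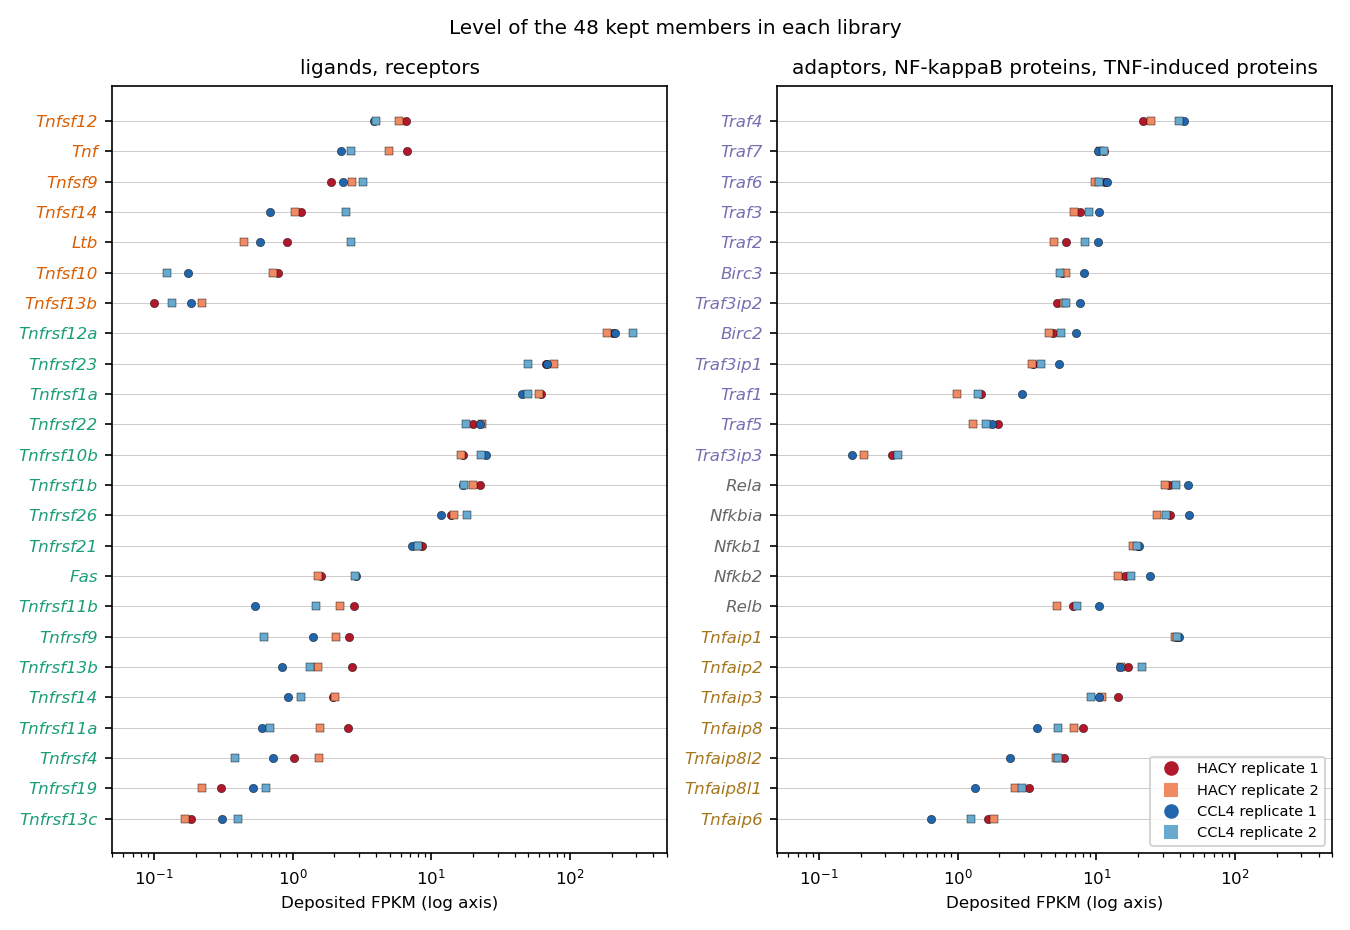
Deposited FPKM of the 48 kept genes in each library on a log axis, ordered by role, with colour and marker for group and replicate. Tnfrsf12a is the highest gene in all 4 libraries and the lowest mean is that of Tnfsf13b, at 0.161 FPKM.

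FPKM is scaled to transcript length, so it allows levels of different genes to be compared. After Tnfrsf12a (mean of 220.7 over the 4 libraries) came Tnfrsf23 (65.2), Tnfrsf1a (54.2), Tnfaip1 (37.9), Rela (36.8), Nfkbia (34.9) and Traf4 (32.2). The ranges over libraries overlapped between Tnfrsf23 and Tnfrsf1a, and among Tnfaip1, Rela, Nfkbia and Traf4, so the order within each of these sets is not distinct. The ligands were far lower, led by Tnfsf12 at 5.05 and Tnf at 4.12 FPKM.

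Of the 12 adaptors, Traf4 fell (8.33%, against 3.54% of all tested genes) and the other 11 did not pass the test. Traf4 encodes an adaptor that is expressed in epithelia and takes part in TGF-beta and cell polarity signalling, and lies on the minus strand at chr11:78158499-78165589. Its CPM was 104.4 and 117.0 in HACY and 189.6 and 175.4 in CCL4. Every HACY library was below every CCL4 library by a margin larger than the spread within a group. The means were 110.7 ± 8.87 and 182.5 ± 10.03 CPM (SD, n = 2 each), with a log2 fold change of -0.72 (SE 0.13, edgeR adjusted p = 0.0146), a 1.65-fold lower level in HACY. Leaving out HACY replicate 1 (-0.65, adjusted p = 0.132) or HACY replicate 2 (-0.80, 0.0505) ended the call, which held in the other 12 of 14 alternatives.

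Traf2 encodes the adaptor that carries the inhibitors of apoptosis to TNF receptors, and was at 39.8 and 32.2 CPM in HACY and 62.4 and 50.6 CPM in CCL4 (log2 fold change -0.65, SE 0.18, edgeR adjusted p = 0.0576). It was called lower by DESeq2, by edgeR without the filter, under upper-quartile scaling, under scaling by library size alone and without CCL4 replicate 2. Traf1, an adaptor that NF-kappaB induces, was at 20.04 and 12.9 CPM in HACY and 33.5 and 16.2 CPM in CCL4 (-0.59, SE 0.37), and it was 0.03 without CCL4 replicate 1. Traf3, a negative regulator of the non-canonical pathway, was at -0.30 (SE 0.14). Traf5, Traf6 and Traf7 had log2 fold changes of 0.02, 0.05 and 0.19, and the TRAF-interacting genes Traf3ip1, Traf3ip2 and Traf3ip3 of -0.32, -0.29 and 0.24. Traf5, Traf7, Traf3ip2 and Traf3ip3 share exons with other genes and are uncertain.

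Birc2 and Birc3 encode cIAP1 and cIAP2, ubiquitin ligases that bind TRAF2 and limit cell death. Birc2 was at 21.6 and 20.2 CPM in HACY and 29.1 and 20.9 CPM in CCL4, and Birc3 at 38.5 and 43.9 CPM in HACY and 56.7 and 35.7 CPM in CCL4. In both the high value was CCL4 replicate 1, the groups overlapped, and the log2 fold changes were -0.26 (SE 0.21) and -0.16 (SE 0.23). Without CCL4 replicate 1 they were 0.00 and 0.21, so their sign rested on that library.

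None of the 5 NF-kappaB genes was called by edgeR or DESeq2, and 1 had an unadjusted edgeR p under 0.05. Nfkbia encodes IkappaB alpha, the inhibitor that NF-kappaB itself induces, and was at 77.1 and 62.2 CPM in HACY and 98.3 and 68.6 CPM in CCL4 (log2 fold change -0.26, SE 0.20, edgeR adjusted p = 0.424). Without CCL4 replicate 1 it was 0.02. Its kappaB site printed above lies 29 to 20 bases before the start. Nfkb2, the p100 precursor of the non-canonical pathway, was at 102.7 and 90.9 CPM in HACY and 147.3 and 110.5 CPM in CCL4 (-0.41, SE 0.17, adjusted p = 0.145), and it shares exons on the opposite strand with Psd. It was the 1 gene of the 5 called without CCL4 replicate 2 (-0.61, adjusted p = 0.0190).

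Among the other subunits, Nfkb1 was close between groups, while Rela and Relb had negative values that were not called. The groups did not overlap for Rela and overlapped for Relb. Rela was at 158.4 and 148.7 CPM in HACY and 197.6 and 163.6 CPM in CCL4 (-0.23, SE 0.14), and Relb at 28.6 and 21.7 CPM in HACY and 37.8 and 28.1 CPM in CCL4 (-0.39, SE 0.22). Nfkb1, which encodes p105, was at 149.6 and 140.1 CPM in HACY and 146.1 and 136.0 CPM in CCL4 (0.04, SE 0.12). All 5 genes were higher in replicate 1 than in replicate 2 in both groups. Replicate 1 was the higher in 75.0% of the 48 kept genes in HACY and 56.25% in CCL4, against 50.1% and 49.5% of all tested genes.

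The genes with Tnfaip symbols had no call by edgeR, 2 of 7 at an unadjusted p under 0.05, and 1 call by DESeq2. Tnfaip3 encodes A20, the ubiquitin-editing enzyme that shuts off NF-kappaB signalling, and was at 91.6 and 72.5 CPM in HACY and 63.4 and 54.6 CPM in CCL4 (log2 fold change 0.48, SE 0.16, edgeR adjusted p = 0.102). Tnfaip8, a lipid-transfer protein gene linked to cell survival, was at 33.5 and 29.8 CPM in HACY and 14.8 and 21.2 CPM in CCL4 (0.81, SE 0.22, 0.0547). It was called by DESeq2, by edgeR without the filter and without CCL4 replicate 2. The groups of both genes did not overlap.

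Tnfaip6, which encodes the hyaluronan-binding protein TSG-6, and Tnfaip8l2 and Tnfaip8l1 had log2 fold changes of 0.84 (SE 0.50), 0.67 (SE 0.39) and 0.51 (SE 0.38). In these 3 genes CCL4 replicate 1 was the lowest library, 2.07- to 2.38-fold below CCL4 replicate 2. Tnfaip1 and Tnfaip2 were at 0.05 and -0.07. Tnfaip8l3, with 0, 1, 2 and 8 counts, was under the count rule. Tnfaip2, Tnfaip8 and Tnfaip8l1 share exons on the opposite strand with another gene.

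The calls depended on single libraries. Without HACY replicate 1 none of the 48 genes was called by edgeR, 9 had an unadjusted p under 0.05, and 4.57% of all tested genes were called. Without HACY replicate 2 there were 3 calls, Tnf, Tnfrsf11a and Tnfsf10, against 5.65% of all tested genes. Each such fit left 1 HACY library, which was assumed to vary as the CCL4 libraries do.

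Leaving out a CCL4 library gave as many calls or more. Without CCL4 replicate 1 there were 6 calls, against 10.5% of all tested genes: Tnfrsf11a, Tnfrsf23, Tnfrsf9 and Tnfsf10 higher, Tnfrsf12a and Traf4 lower. Without CCL4 replicate 2 there were 15 calls (31.3%), 9 higher and 6 lower, against 22.2% of all tested genes. The 15 held all 6 of the genes called with 4 libraries. The 9 added were Tnfaip8, Tnfaip8l1, Tnfaip8l2 and Tnfrsf11b higher and Nfkb2, Tnfrsf10b, Traf1, Traf2 and Traf3 lower.

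**Figure D4:**
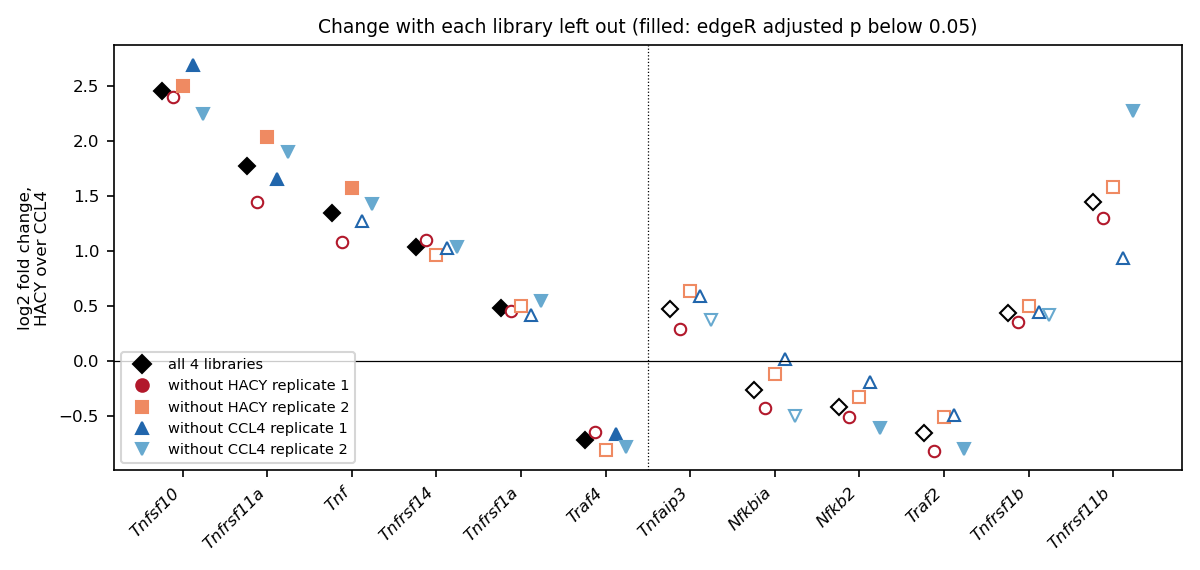
Log2 fold change, HACY over CCL4, of the called genes (left of the dotted line) and of further named genes, with all 4 libraries and with each library left out in turn. Filled points passed edgeR's test at an adjusted p of 0.05. The 6 called genes kept their sign in every such fit, and none was called without HACY replicate 1.

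The spread within groups was larger in CCL4. The median ratio of the higher to the lower library was 1.15 in HACY and 1.32 in CCL4 over the 48 genes, against 1.12 and 1.19 over all tested genes. It passed 1.5 in 7 of 48 genes in HACY (14.6%, against 9.52% of all tested genes) and 12 of 48 in CCL4 (25.0%, against 18.4%). The largest was Ltb in CCL4, at 4.04-fold.

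Other genes of the pathway came from lists. Of 17 genes of the receptor complexes, ligand shedding and death machinery, 4 rose (23.5%, against 8.19% of all tested genes) and none fell. They were Mlkl, the executor of necroptosis (log2 fold change 0.74, SE 0.13, edgeR adjusted p = 0.0167), Adam10, a sheddase (0.55, SE 0.12, 0.0337), Ripk1, the kinase of the TNFR1 complex (0.56, SE 0.13, 0.0341), and Rhbdf2, a partner of the TNF-shedding enzyme ADAM17 (0.52, SE 0.13, 0.0426). The median of the list was 0.26. It had 0 calls without HACY replicate 1, with 3 at an unadjusted p under 0.05, and 1, Mlkl, without HACY replicate 2 and under scaling by library size alone. Adam10 and Rhbdf2 were also not called without CCL4 replicate 1.

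Of 21 genes of the ubiquitin and IKK steps, none rose and 2 fell (9.52%, against 3.54% of all tested genes), with a list median of 0.09. They were Tab1, a TAK1-binding adaptor (-0.87, SE 0.18, edgeR adjusted p = 0.0261), and Rbck1, which encodes HOIL-1 of the linear ubiquitin ligase (-0.50, SE 0.13, 0.0478). Both calls were lost without either HACY library, where the list had 0 edgeR calls and 2 or 4 genes at an unadjusted p under 0.05. It had 3 higher and 2 lower calls without CCL4 replicate 1, and 1 higher and 3 lower without CCL4 replicate 2. Of 10 other NF-kappaB and IkappaB genes, Nfkbiz, an inducible nuclear IkappaB, rose (0.98, SE 0.16, edgeR adjusted p = 0.0112) and none fell, with a list median of -0.19. Without HACY replicate 1 its adjusted p was 0.0597.

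Of 29 tested NF-kappaB target genes, 7 rose (24.1%, against 8.19% of all tested genes) and 3 fell (10.3%, against 3.54%). The median was 0.27. The chemokine genes Ccl5 (log2 fold change 1.99, SE 0.23, edgeR adjusted p = 0.00330) and Cxcl10 (2.29, SE 0.27, 0.00360) and the cytokine gene Il1a (1.82, SE 0.22, 0.00384) rose, and the stress gene Gadd45b fell by 1.26 (SE 0.17, 0.00515). These 4 were called whichever library was left out. The other calls, named after their values were seen, were Plau, Vcam1, Lcn2 and Bcl2a1b higher and Icam1 and Mmp9 lower, and Bcl2a1b has near-identical copies and is uncertain. Plau, Vcam1 and Bcl2a1b were not called without HACY replicate 1, Icam1 without HACY replicate 2, and Lcn2 without HACY replicate 2 or CCL4 replicate 1. Mmp9 was at 8.57 and 9.02 CPM in HACY and 18.5 and 89.5 CPM in CCL4, high in the library with the high neutrophil sum. It was called in 6 of 14 alternatives, not by DESeq2 and not without either HACY library, and its log2 fold change was -3.34 to -1.07 with 1 library left out. Without HACY replicate 1 the list had 6 calls and without CCL4 replicate 2 it had 14.

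Of 10 superfamily genes whose symbols fall outside the naming rule, 5 were tested and none was called by edgeR, with 2 at an unadjusted p under 0.05 and 1 call, lower, by DESeq2. Their median was -0.10. Eda2r, a receptor for ectodysplasin A2, had a log2 fold change of -0.89 (SE 0.25, edgeR adjusted p = 0.0617), was between -1.23 and -0.44 with 1 library left out, and was called lower by DESeq2, under scaling by library size alone and without CCL4 replicate 2. Ltbr, the lymphotoxin beta receptor, was at -0.10 (SE 0.14). Cd40lg, Cd70 and Edar had 0 counts in all 4 libraries.

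Of the cell type marker lists, those of macrophages, hepatocytes and endothelium had more than 1 call each. Over all tested genes 8.19% rose and 3.54% fell. Of 12 macrophage markers 11 rose (91.7%) and none fell, with a median log2 fold change of 1.61. Their summed CPM was 2934 to 4130 in HACY and 1164 to 1579 in CCL4. With 1 library left out 8 to 12 were called, all higher. The members called higher, Tnf, Tnfsf10, Tnfrsf11a, Tnfrsf14 and Tnfrsf1a, were higher in the same libraries. So were the sums of the hepatocyte, endothelial, cholangiocyte, B cell, T and NK cell and erythroid lists. The part of RNA of macrophages or of these other cells in the values of the called members was not tested. Of 8 hepatocyte markers 7 rose (87.5%) and none fell (median 1.54), with sums of 27200 to 34348 CPM in HACY and 6659 to 8135 CPM in CCL4. Among 8 endothelial markers 3 rose and 1 fell (median 1.02), with sums of 946 to 1238 CPM in HACY and 405 to 687 CPM in CCL4, and calls numbered 1 when HACY replicate 1 was left out, 2 when CCL4 replicate 1 was and 7 when CCL4 replicate 2 was.

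With all 4 libraries the other lists had at most 1 call each. Of 8 cholangiocyte markers 1 rose and none fell (median 0.55), with sums of 2942 to 4242 CPM in HACY and 1176 to 2213 CPM in CCL4, with 0 calls without HACY replicate 1 or CCL4 replicate 1 (3 at an unadjusted p under 0.05 each) and 5 without CCL4 replicate 2. Of 8 tested neutrophil markers 1 fell and none rose (median -1.38), but 6 fell without CCL4 replicate 1 (median -3.26), 4 rose and 1 fell without CCL4 replicate 2 (median 2.39), and limma-voom called none (median 0.19). Of 8 B cell markers 1 rose and none fell (median 0.24), with sums of 44.4 to 56.8 CPM in HACY and 33.9 to 36.9 CPM in CCL4. The stellate and fibroblast markers had no call by edgeR or DESeq2 among 7 tested, none at an unadjusted edgeR p under 0.05, and sums of 533.0 to 649.9 CPM in HACY and 319.5 and 776.2 CPM in CCL4. Of these 7, 3 fell without CCL4 replicate 1 (median -0.42) and 4 rose without CCL4 replicate 2 (median 0.93). T and NK cell markers summed to 4.64 and 6.02 CPM in HACY and 1.16 and 1.04 CPM in CCL4. Of the 2 tested, Gzmb rose (log2 fold change 2.995, SE 0.70, edgeR adjusted p = 0.0371) and Cd4 was at 2.22 (0.0520), and neither was called without HACY replicate 2 or CCL4 replicate 2. Erythroid markers summed to 5.24 and 10.3 CPM in HACY and 2.48 and 3.70 CPM in CCL4, with no edgeR or DESeq2 call among 2 tested and 1 at an unadjusted p under 0.05. No marker of these 9 lists was at 0 in every library, and the part of any of them in the results above was not tested.

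**Figure D5:**
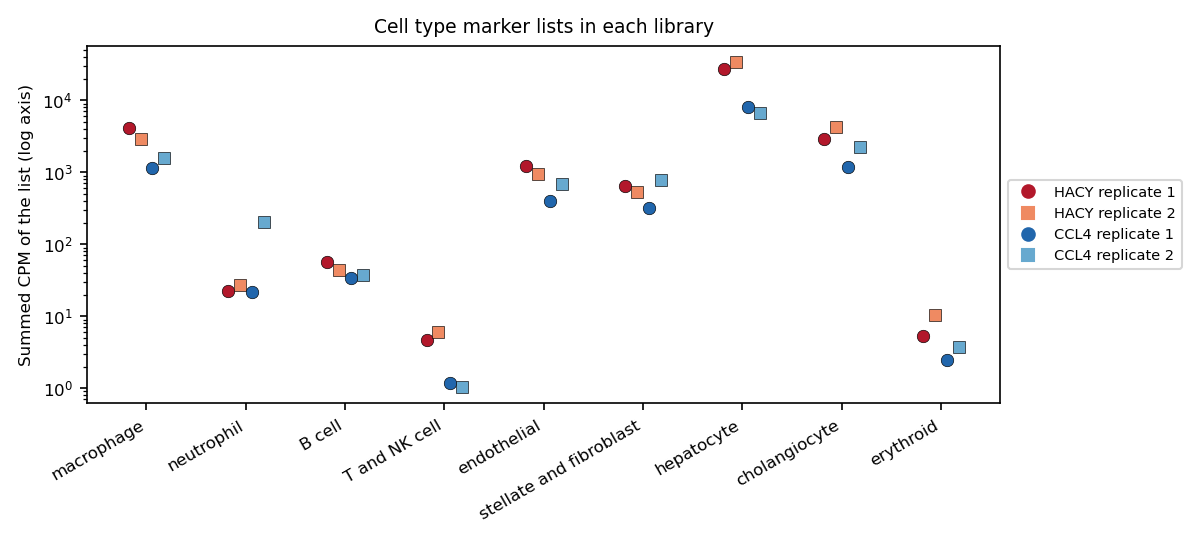
Summed CPM of each cell type marker list in each library, on a log axis. Macrophage, hepatocyte, endothelial, cholangiocyte, B cell, T and NK cell and erythroid sums are higher in both HACY libraries than in both CCL4 libraries. The neutrophil sum is high in CCL4 replicate 2 alone.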

How the data were processed

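RNA of CD24+ liver cells was sequenced from stranded, paired-end mRNA libraries, as the labels' protocols state. Each of the 4 libraries has a deposited table of raw counts and FPKM per gene symbol. The counts are whole numbers that the authors did not normalize, per the file headers. The FPKM values were made by the authors and are scaled to transcript length and depth, per the file headers. Trimmomatic, HISAT2, Cufflinks, HTSeq and DESeq and the build mm10 are named per the submitters' processing notes, without roles. Which annotation and strand setting were used for counting is not given in the sources used here. Genes with overlapping exons are therefore uncertain.

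The test was that of edgeR 4.0.16 (R 4.3.3) on the raw counts: filterByExpr (minimum count 10, minimum total 15), TMM, robust quasi-likelihood fit, treatment as the only term, two-sided, Benjamini-Hochberg over 13428 genes, threshold 0.05. The biological coefficient of variation was 16.5%. A standard error is the size of the log2 fold change over the square root of its F statistic, which is approximate. An exact permutation of 2 against 2 libraries cannot go below p = 0.333. The scripts were tested on simulated data. Replicates differed by more than counting noise (chi-square per degree of freedom 16.7 in HACY and 30.0 in CCL4), so none is a copy. The limit from a count of 0 covers counting error only.

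The alternatives tried were DESeq2 1.42.0, scaling by RLE, by upper quartile and by library size alone, voom and FPKM fits in limma 3.58.1 (log2 of FPKM plus 1 or 0.1, at FPKM 1 or more), no filter, another filter, a replicate block and leaving out each library. Positions are from GENCODE on GRCm38, the assembly of mm10, and upstream sequences from RefSeq on GRCm38.p6. Symbols were matched exactly, and the marker Trac matched no row.

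The members, roles and lists were chosen with earlier results of these data known. Library values are given for every called member and for a set list of 20 core members, and up to 4 genes of smallest p are named per list. Other values were added after they were seen.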

Additional observations from a re-analysis of the deposited data

How the results depend on the processing

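Low counts limited what could be said of the 14 members under the count rule, and 2 libraries a group limited the test of the others. Over all tested genes, 1576 were called (1100 higher, 476 lower), and over the members 6 (5 higher, 1 lower). Leaving out 1 library gave 629 to 3047 genes (530 to 1840 higher, 99 to 1207 lower) and 0 to 15 members (0 to 9 higher, 0 to 6 lower). Lower calls were 1355 under scaling by library size alone, which moved the median of all genes from -0.01 to -0.18, against 856 higher, and 738 with DESeq2. Higher calls were 670 and 673 in limma on log2(FPKM + 1) and log2(FPKM + 0.1), against 664 and 675 lower. Members called higher and lower were 3 and 2 under upper-quartile scaling, 3 and 3 under library size alone, 2 and 3 in each FPKM fit, which tested 42 members and not Tnfsf10, 7 and 2 with DESeq2, and 7 and 2 with no filter. For these the cause was not tested. Upper-quartile scaling called 925 genes higher and 614 lower.

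The replicate numbers are shared between groups in the labels, but nothing says that they pair libraries, and deviations of same-numbered libraries correlated at -0.13 across genes. With the replicate block 1224 genes were called and 5 members, 3 higher and 2 lower: Tnfrsf14 (adjusted p = 0.0794) and Tnfrsf1a (0.0632) were not called and Traf2 was called lower. With the numbers crossed, an alternative chosen after seeing the data, 3088 genes were called (1843 higher, 1245 lower) and 14 members (12 higher, 2 lower). Over single members and alternatives, 611 values stayed on their side of the threshold, 26 passed it newly and 22 no longer passed it. Of the 611, 43 had the opposite sign, all of them of members not called, and no called member changed sign.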
